A study of Homo sapiens with 6 samples.

Results

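Distal 8q, the outer part of the long arm of human chromosome 8, was described by its CTCF peaks in HCT-116, an established human colon cancer cell line. Clone D3 and clone E4, both labelled as CTCF mutants, were set against wild-type cells (WT), with 1 CTCF library each. The position of the mutation is not given in the labels, and each mutant line is 1 clone. The rule took every peak on chromosome 8 of build hg19 that starts at or above 85 Mb, without the stretch from 127.5 to 129.2 Mb around the oncogene MYC. D3 thereby had 1236 of its 57935 peaks in distal 8q, E4 753 of 39434 and WT 1010 of 38645. Merged wherever peaks of the lists overlapped, they formed 1378 of the 60235 regions of the series, 940 before the stretch around MYC and 438 after it. The 630 regions of 8q between 48 and 85 Mb served as the control.

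The start at 85 Mb was chosen from ranks of these same lists, so every difference between a clone and WT given here is a description. The last region outside, chr8:84912101-84912501, and the first inside, chr8:85006820-85007521, were both called in D3 alone. The peak lists give no read totals, and the depth of each library is unknown. For that reason the authors' −log10 q, fold and peak width were turned into ranks within a list before lists were set side by side. A peak list also does not separate the number of DNA copies of an arm from CTCF occupancy per copy, and copy number was not analysed here.

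CTCF is a zinc-finger protein that binds an insulator motif and stops cohesin as it extrudes chromatin loops, so that paired sites become loop anchors and domain borders. Sites that many cell types share tend to be strongly bound, and weaker sites vary more between cells. Distal 8q carries genes for epithelial identity, genome maintenance, translation and signalling.

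Distal 8q took up a smaller part of both clone lists than of the WT list. D3 had 2.13% of its peaks there (exact 95% interval 2.02 to 2.25), E4 1.91% (1.78 to 2.05) and WT 2.61% (2.46 to 2.78). The control part of the arm was 1.02% of the D3 list, 0.984% of the E4 list and 1.06% of the WT list, with intervals that overlap. Per control peak, D3 had 2.09 distal peaks, E4 1.94 and WT 2.47. The intervals cover counting error only, and no value here has a replicate check.

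The lower share in E4 was seen along the whole of distal 8q. E4 devoted a smaller share of its list than WT to each of the 13 bins of 5 Mb, and D3 did so in 12 of 13 bins. In the 8 control bins this was the case in 4 for E4 and in 5 for D3. In the richest bin, from 140 Mb, D3 had 168 peaks, E4 116 and WT 175, although the D3 list is the longest. In the poorest, from 135 Mb, D3 had 42 peaks, E4 22 and WT 41.

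**Figure D1:**
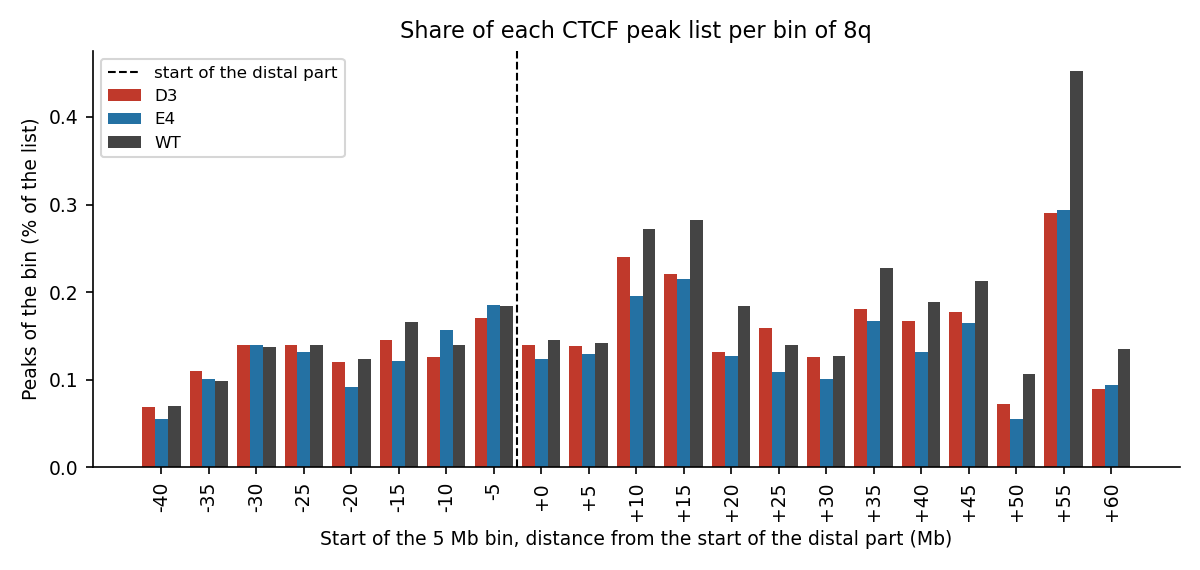
Peaks of each 5 Mb bin of 8q as a percentage of the whole list (vertical axis) for D3, E4 and WT, with bins placed by their distance in Mb from the start of distal 8q. The first bin begins at 48 Mb and the bin at +40 lacks the stretch around MYC; the WT bar is the tallest in 12 of 13 distal bins, and the bin at +55 held 168 D3, 116 E4 and 175 WT peaks.

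Many WT peaks of distal 8q had no counterpart in E4. Of the 1010 distal WT peaks, 310 had no E4 peak, or 30.7% (27.9 to 33.6), against 14.3% of all WT peaks. D3 lacked 134, or 13.3% (11.2 to 15.5), against 4.05% of all WT peaks. Both clones lacked 133 of them, or 13.2%, against 3.69% over the genome. In the control, E4 lacked 86 of 409 WT peaks (21.0%, 17.2 to 25.3) and D3 lacked 26 (6.36%, 4.19 to 9.18). Distal 8q therefore exceeded the control, and the control exceeded the other chromosomes, where the shares were 13.7% for E4 and 3.74% for D3.

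In the lists as deposited, the peaks that D3 lacked were almost all lacking in E4 too, which depended on list length. A single distal WT peak was absent from D3 and present in E4, chr8:144460860-144462538, with a −log10 q of 11.3 in E4 and 5.41 in WT. Such regions were 0.216% of the series. The reverse, a WT peak kept by D3 and absent from E4, occurred 177 times, or in 17.5% of the distal WT peaks. The E4 list is shorter than the D3 list. At equal list length 42 distal WT peaks were absent from D3 alone (4.16%) and 109 from E4 alone (10.8%), and 206 from both (20.4%). In the control these shares were 5.87%, 10.5% and 11.2%, and on other chromosomes 4.85%, 5.99% and 8.09%. The share absent from E4 alone was thus near that of the control, and the share absent from both was above it. At this list length D3 lacked 24.6% of the distal WT peaks, against 17.1% in the control and 12.9% on other chromosomes. E4 lacked 31.2%, against 21.8% and 14.1% in the same places.

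Missing peaks were mostly weak ones, and among the weakest ones their share was highest in distal 8q, although some intervals overlap that of the control. In the weakest 2 deciles of the WT list, D3 lacked 38.5% of the peaks before the stretch around MYC and 56.3% after it, against 24 of 96 peaks in the control and 16.6% on other chromosomes. E4 lacked 74.7% and 83.3% in the same places, against 57.3% in the control and 44.7% on other chromosomes. In deciles 3 to 5, E4 lacked 49.3% of the 73 WT peaks after the stretch (37.4 to 61.3) and 21.3% of the 160 before it (15.2 to 28.4), against 18.0% in the control. Among the strongest 2 deciles D3 lacked 0 of 237 distal WT peaks, with an exact upper limit of 1.54%, and E4 lacked 1, chr8:144680903-144681527. In the control D3 lacked 0 and E4 2 of 54 such peaks, and on other chromosomes D3 lacked 1 and E4 17 of 7308. In this class distal 8q thus did not exceed the control.

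**Figure D2:**
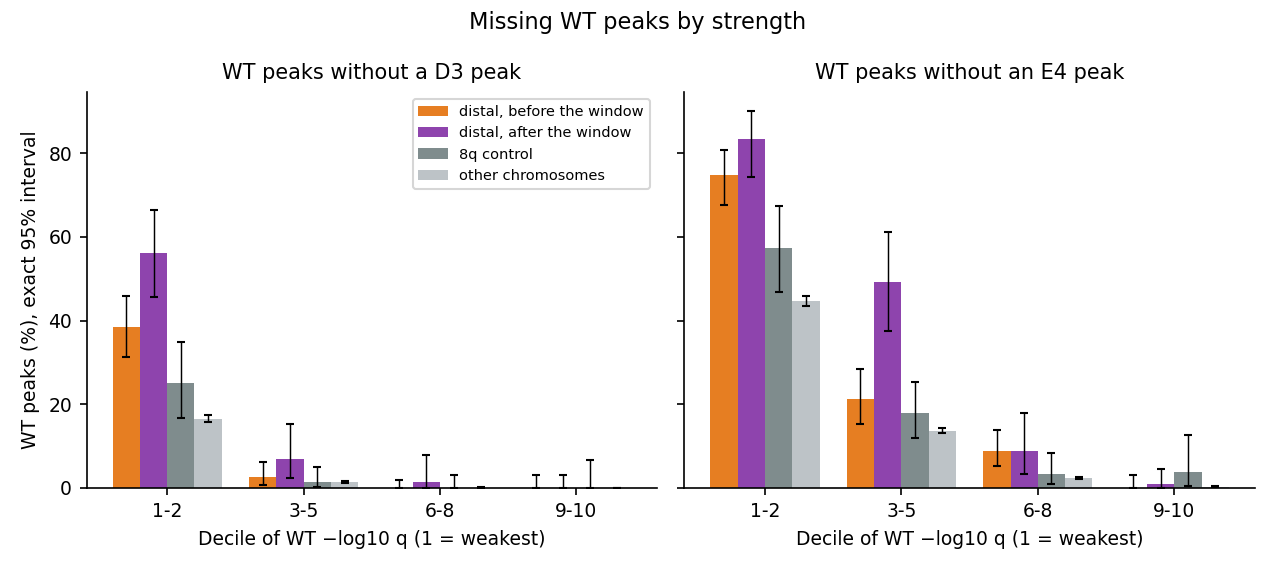
Share of WT peaks without a D3 peak (left) and without an E4 peak (right), in percent with exact 95% intervals, by class of WT −log10 q from weakest to strongest. Bars stand for distal 8q before and after the stretch around MYC, the 8q control and all other chromosomes; in the weakest class the distal bars are the tallest, at 38.5% and 56.3% for D3 and at 74.7% and 83.3% for E4.

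The WT peaks that E4 lacked and D3 kept included some of good strength. The first, chr8:144680903-144681527, had a −log10 q of 7.31 in D3 and 11.3 in WT, where it stood at percentile 82.5. The second, chr8:111071935-111073500, had 16.0 in D3 and 10.5 in WT. The next lay in the window of PTK2, the gene of focal adhesion kinase, at chr8:142011142-142011921, with 15.8 in D3 and 10.1 in WT. Another lay in the window of CDH17, which encodes a cadherin of liver and intestine, at chr8:95199686-95200642, with 17.1 in D3 and 9.76 in WT. The strongest WT peak that both clones lacked was far weaker, chr8:86810905-86811180 with 4.26 in WT, where it stood at percentile 39.5.

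Regions of D3 and E4 without WT were a smaller share of distal 8q than of the series, and E4 peaks without a WT peak were also fewer than elsewhere. Regions called in D3 and E4 and not in WT numbered 38 of 1378, or 2.76% (1.96 to 3.77), against 9.31% of all regions and 8.25% in the control. Of the E4 peaks in distal 8q, 49 of 753 had no WT peak (6.51%, 4.85 to 8.51), against 16.8% in the control and 16.8% on other chromosomes. For D3 the share was 29.9% in distal 8q (27.3 to 32.5), 36.0% in the control and 37.1% on other chromosomes. Regions of D3 and WT without E4 made up 12.6% of distal 8q (10.9 to 14.4), against 6.62% of all regions. The control had 9.37% of these (7.21 to 11.9), an interval that overlaps the distal one. Regions of WT alone made up 9.65% (8.14 to 11.3), against 2.37% of all and 3.81% in the control (2.46 to 5.62). Regions of D3 alone made up 24.0% (21.8 to 26.4), against 26.1% of all and 25.6% in the control. Those of all 3 lists made up 50.1%, against 53.9% of all and 50.6% in the control.

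The strongest region that the clones had and WT lacked was chr8:102768229-102768984, with a −log10 q of 17.2 in D3 and 5.34 in E4. A second, chr8:124702478-124703009, lay in the window of ANXA13, an intestinal annexin gene, with 4.60 in D3 and 5.21 in E4. The strongest region of D3 alone was chr8:85933944-85934809, with a −log10 q of 21.9 and a fold of 12.0. The 11 regions of E4 alone made up 0.798%, against 1.45% of all regions and 2.06% in the control. The strongest of them, chr8:104992789-104993120, had a −log10 q of 3.97.

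Ranks could be compared without list length among the regions called in all 3 lists, 32495 in the series and 691 in distal 8q. A region's rank is its percentile of −log10 q among these regions within 1 list, where the strongest has 100. Before the stretch around MYC, the 462 regions had a median rank of 48.8 (D3), 34.6 (E4) and 53.3 (WT). After it, the 229 regions had medians of 51.5 (D3), 52.0 (E4) and 76.5 (WT). In the control D3 had a median of 44.2, E4 41.2 and WT 44.0, and on other chromosomes D3 had 49.99, E4 50.3 and WT 49.8. E4 was thus the list that stood low before the stretch, and WT was the list that stood high after it, with both clones near the middle.

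**Figure D3:**
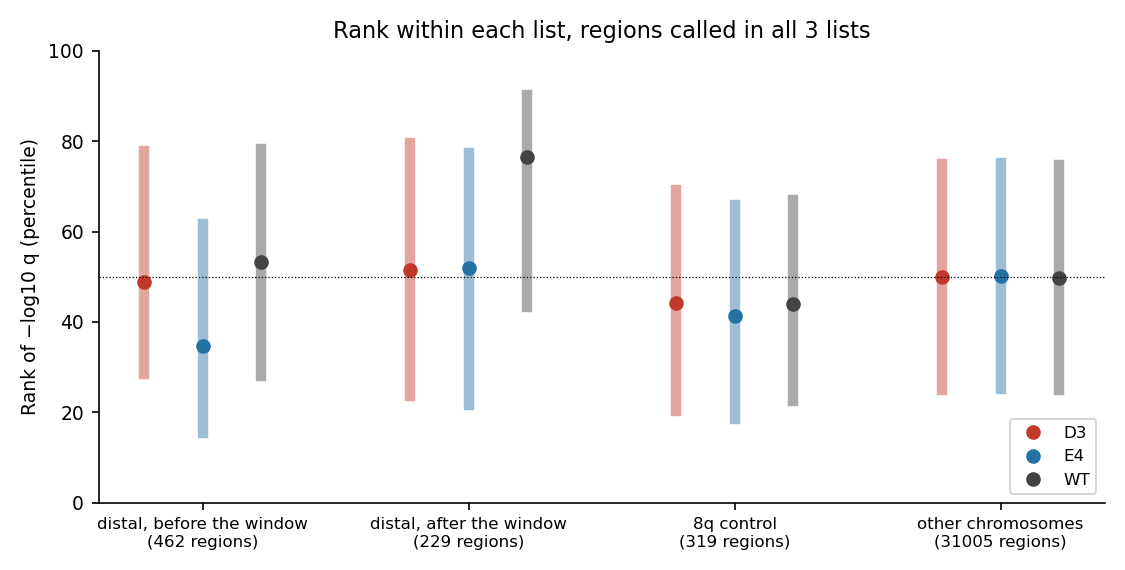
Rank of −log10 q within each list (percentile among the regions called in all 3 lists) for D3, E4 and WT, in distal 8q before and after the stretch around MYC, in the control and on other chromosomes. Points are medians and bars run from the lower to the upper quartile; E4 is lowest at 34.6 before the stretch, and WT is highest at 76.5 after it.

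Taken region by region, E4 ranked below WT in 362 of 462 regions before the stretch and in 199 of 229 after it, against 49.0% of all shared regions of the series. The median difference between E4 and WT over distal 8q was −12.6 percentile points (quartiles −25.3 and −2.46), and in the control it was −0.809 (−14.2 and 12.3). D3 ranked below WT in 199 of 229 regions after the stretch and in 249 of 462 before it, against 50.1% of all shared regions. Its median difference was −12.5 points after the stretch (−24.998 and −3.23), −1.17 before it (−12.7 and 9.55) and 0.575 in the control (−9.43 and 11.0). The clones were close after the stretch, where the median of D3 minus E4 was −1.27 points, and apart before it, where it was 10.8 points.

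Large differences followed the same division. E4 ranked lower than WT by 20 points or more in 245 of 691 distal regions, or 35.5%, against 13.7% of all shared regions. In the control this share was 18.8% for E4 and 13.5% for D3. E4 ranked higher by as much in 2.46% of the distal regions, against 13.5% of all, and D3 in 8.39%, against 13.1% of all. D3 ranked lower by as much in 84 of the 229 regions after the stretch (36.7%) and in 64 of the 462 before it (13.9%), against 13.2% of all shared regions. Before the stretch, the share in D3 was thus near that of the series.

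The regions were also split into tertiles of WT rank. Before the stretch, regions in the highest tertile of WT had a median rank of 83.7 (D3), 64.8 (E4) and 85.3 (WT). On other chromosomes that tertile had 81.8 (D3), 82.2 (E4) and 83.3 (WT). After the stretch the middle tertile had 28.2 (D3), 29.5 (E4) and 53.8 (WT), against 48.5, 48.7 and 49.96 on other chromosomes. Before the stretch E4 was low among both middling and strong sites, with median differences of −18.5 and −19.5 points. After it both clones were low among middling sites, with −20.7 in D3 and −22.9 in E4. Among strong sites after it, D3 had −14.3 and E4 −13.4. On other chromosomes E4 had −1.33 in the middle and −1.99 in the highest tertile. In the control E4 had −5.05 and −3.31 in the same tertiles, and D3 had −0.158 and −0.412. In the lowest tertile the median difference of E4 was −2.52 points before the stretch and −3.57 after it, against 6.92 points on other chromosomes. That of D3 was 4.63 before the stretch and −3.44 after it, against 5.86 on other chromosomes. Before the stretch D3 had −3.10 in the middle and −2.56 in the highest tertile, close to the −1.83 and −2.45 of other chromosomes.

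The borders were described by the 20 shared regions on either side. Over the 20 shared regions that end at 84.8 Mb the median difference between E4 and WT was −2.91 points (quartiles −17.3 and 13.4), and over the 20 that begin at 85.1 Mb it was −10.8 (−27.5 and −2.82). For D3 the 20 shared regions before the stretch had a median of −3.34 points (−17.4 and 6.41), and the 20 after it had −13.6 (−17.3 and −4.92). Within the stretch the 22 shared regions had medians of −17.8 points in D3 and −12.4 in E4. The low ranks reached the end of the chromosome, where the last 20 shared regions had −10.9 in D3 and −12.5 in E4. The running median over 15 regions was below 0 at 99.1% of the positions before the stretch in E4 and at 66.7% in D3, against 52.9% and 36.5% in the control. Its lowest control value was −8.76 in D3 and −17.2 in E4, and D3 also reached −17.5 before the stretch, at 118.5 Mb. After the stretch it was below 0 at all 222 positions in both clones. Running medians near a border also took in regions across it, including those within the stretch around MYC.

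**Figure D4:**
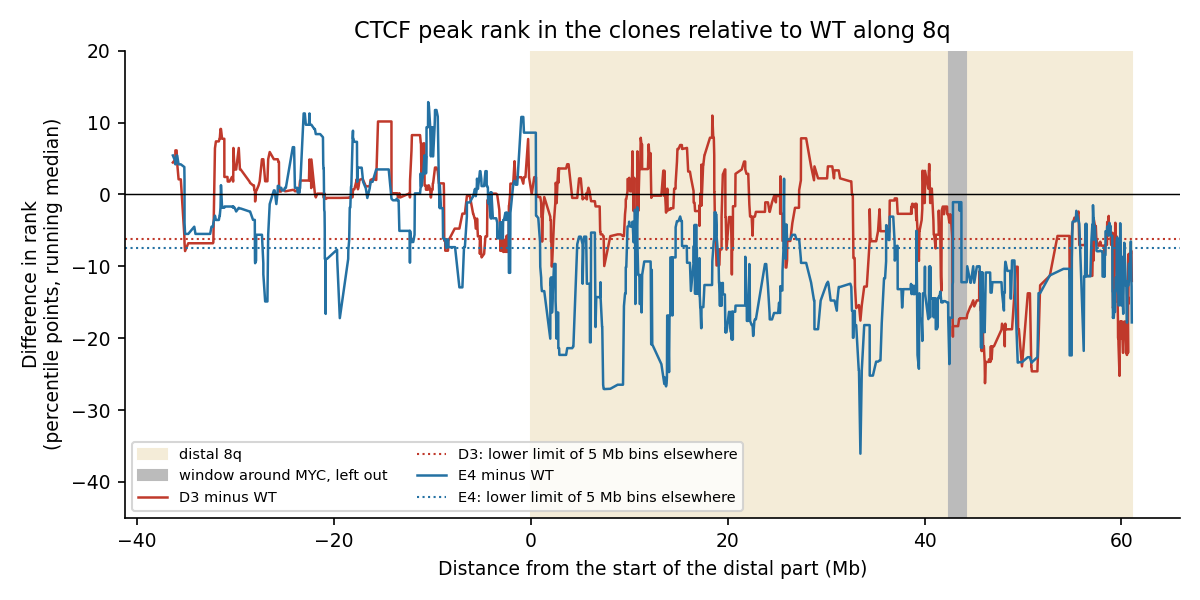
Running median over 15 shared regions of the difference in rank (percentile points of −log10 q), D3 minus WT and E4 minus WT, against the distance in Mb from the start of distal 8q. Regions within the stretch around MYC enter the running medians near it. The start of distal 8q was chosen from ranks of these same lists, so the limits drawn are a description and not a test. Dotted lines mark the lower limits of the central 95% of 5 Mb bins on other chromosomes, −6.24 for D3 and −7.40 for E4; the E4 line is below 0 at 458 of 462 positions before the stretch around MYC and the D3 line at 308, and both stay below 0 at all 222 positions after it.

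In bins of 5 Mb, all 13 distal bins of E4 and the 4 from 130 Mb of D3 lay below the central 95% of bins on other chromosomes, and 0 of 8 control bins did in either clone. The lowest bin in E4 was that from 135 Mb, with a median difference of −22.4 points and 20 of 21 regions lower. In D3 it was the bin from 130 Mb, with −16.7 points and 52 of 59 regions lower. The limits were −6.24 for D3 and −7.40 for E4, and on other chromosomes 14 of 544 bins lay below each. Bins elsewhere reached −21.3 in D3 and −17.1 in E4, so single bins of other chromosomes were as low as most of distal 8q. The start of distal 8q was chosen from ranks of these same lists, so low bins inside it follow in part from that choice. The lack of low bins in the control just outside follows in part from it too. The limits therefore describe the bins and do not test them.

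Peak width, which is called from the same reads, was also lower in rank in the clones. By median, the contrast to the control was smaller than for −log10 q in D3 and larger in E4. Distal regions of all 3 lists had median widths of 1160 bp (D3), 747 bp (E4) and 823 bp (WT), and control regions had 1085, 761 and 656 bp. WT regions were thus wider in distal 8q than in the control, and E4 regions were not. As ranks within each list, widths differed by a median of −15.0 points between E4 and WT (quartiles −32.1 and −0.625) and by −5.89 between D3 and WT (−23.4 and 7.80). Width rank was lower in E4 in 526 of 691 regions, against 49.6% of all shared regions. It was lower in D3 in 177 of 229 regions after the stretch and in 268 of 462 before it, against 52.7% of all. In the control the medians were −2.28 in D3 and −0.511 in E4. By width, 6 of 13 distal bins in D3 and 11 of 13 in E4 lay below the limits from other chromosomes. In the control 1 of 8 bins did in each clone, with lowest control medians of −7.83 in D3 and −15.3 in E4. As for −log10 q, these limits describe the bins and do not test them.

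Most of the distal sites picked as highest in fold in a list ranked near the top of all lists. A rank near the top of the list used for picking follows from that choice. The highest fold in D3 and in E4 was at chr8:90995233-90997693, in the window of NBN, which encodes a subunit of the complex that senses DNA double-strand breaks. Its fold was 33.5 (D3), 29.5 (E4) and 17.2 (WT), and its rank was 99.9, 99.9 and 99.8. The site at STK3, the gene of a Hippo pathway kinase, chr8:99952229-99954219, ranked 99.7 (D3), 99.8 (E4) and 98.1 (WT). The highest fold in WT was at chr8:143807835-143809146, with ranks of 99.4, 99.9 and 99.9 in D3, E4 and WT. A further site, chr8:142394488-142399245 in the window of PTP4A3, which encodes a phosphatase linked to spread of colorectal cancer, ranked 95.5 (D3), 99.1 (E4) and 99.0 (WT). The largest difference from WT at these 4 sites was −3.49 points, in D3 at PTP4A3. Of the other sites among the highest in fold, chr8:145596773-145598548 ranked 99.8 (D3), 96.9 (E4) and 99.5 (WT). E4 stood further below WT at chr8:107281905-107283151, which ranked 98.3 (D3), 91.0 (E4) and 99.7 (WT).

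Single regions lay much further below WT. The lowest in D3 relative to WT was chr8:119674557-119675082, which ranked 7.25 (D3), 14.0 (E4) and 81.7 (WT), so both clones were low there. The lowest in E4 relative to WT was chr8:119430603-119432099, which ranked 69.9 (D3), 6.86 (E4) and 85.3 (WT), so E4 alone was far below. At chr8:130951634-130952248 the ranks were 0.197 (D3), 11.6 (E4) and 73.6 (WT). At chr8:95820471-95821247 they were 12.4, 7.07 and 75.5 in D3, E4 and WT. Both are sites where neither clone came near WT.

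Some distal regions went the other way in both clones. At chr8:90859986-90861490 the rank was 76.8 (D3), 70.8 (E4) and 22.8 (WT), the largest positive difference of E4. At chr8:87100412-87101338, where D3 was furthest above WT, it was 86.6 (D3), 44.8 (E4) and 27.0 (WT). The broadest WT region, chr8:106917422-106921761, measured 3836 bp in D3, 2297 bp in E4 and 4340 bp in WT and ranked 77.6, 84.3 and 50.0. The lower ranks of the clones were therefore those of most regions and not of every region.

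Genes of distal 8q were read through windows of the gene with 10 kb on either side, 62 in all, in groups by role. Some neighbouring windows overlap, as at HSF1 and DGAT1 and at PUF60 and SCRIB, so a region can be counted in both. At least 1 region lay in 58 windows, and a region of all 3 lists in 52. SQLE, SDC2, RIPK2 and ATAD2 had no peak in any list. Before the stretch around MYC, the median over a window's shared regions of the difference in rank from WT was below 0 in 27 of 32 windows for E4 and in 17 of 32 for D3. After it, it was below 0 in 19 of 20 windows for E4 and in 20 of 20 for D3. Windows are counted as below WT by this median difference, which can differ in sign from the gap between the median ranks, as at DEPTOR, GRHL2 and KHDRBS3. The share of all shared regions below WT was 49.0% in E4 and 50.1% in D3, and these are shares of regions, not of windows.

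**Figure D5:**
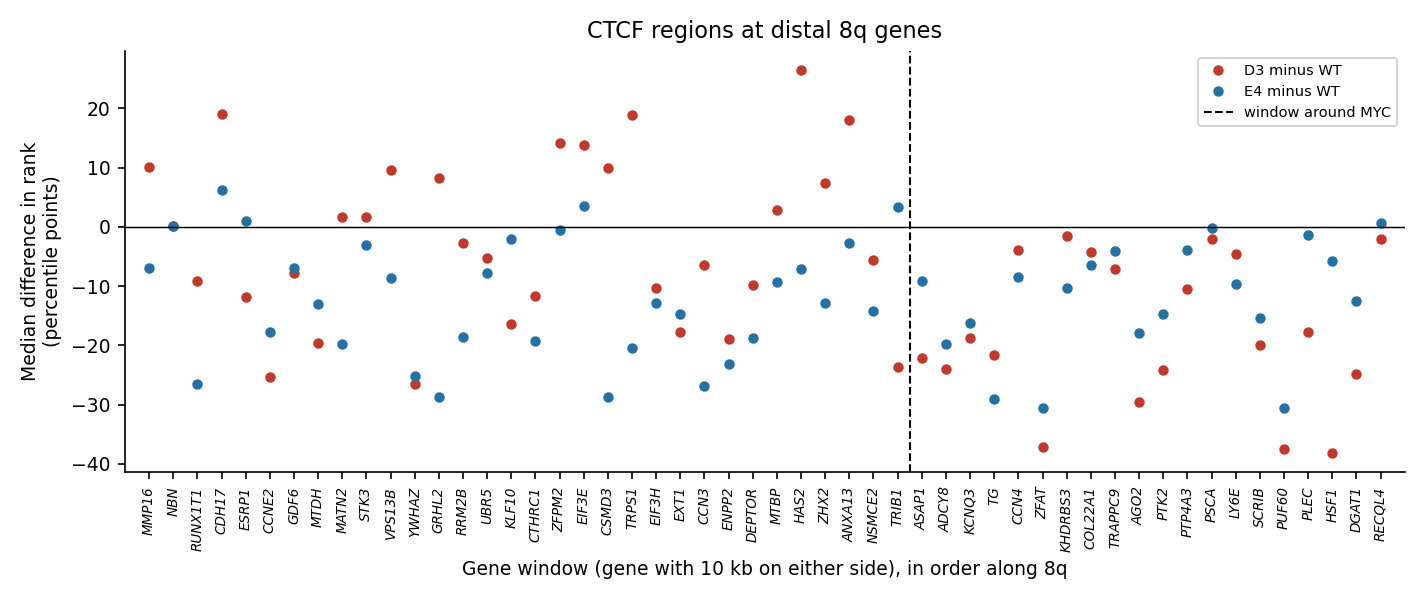
Median difference in rank (percentile points) over the regions called in all 3 lists in each of 52 gene windows, D3 minus WT and E4 minus WT, in order along 8q. Right of the dashed line, which marks the stretch around MYC, all 20 D3 points and 19 of 20 E4 points lie below 0; left of it, 27 of 32 E4 points and 17 of 32 D3 points do.

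Among 6 of 8 genome maintenance genes with a shared region, E4 was below WT in 4 and D3 in 4, with median differences of −8.57 points for E4 and −2.43 for D3. RRM2B, a p53-responsive ribonucleotide reductase subunit gene, had 1 region, which ranked 90.9 (D3), 75.1 (E4) and 93.7 (WT). NSMCE2, a SUMO ligase gene of the SMC5/6 complex, had 12 (D3), 6 (E4) and 9 (WT) peaks, and E4 was lower in all 5 shared regions. RECQL4, a DNA helicase gene near the chromosome end, had 2 regions with a median rank of 50.3 (D3), 52.9 (E4) and 52.3 (WT).

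Of the 7 epithelial genes, 6 had a shared region, with E4 below WT in 4 and D3 in 3. GRHL2, an epithelial transcription factor gene, had 4 shared regions with a median rank of 59.8 (D3), 28.3 (E4) and 66.0 (WT), and E4 was lower in all 4 and D3 in 1 of 4. ESRP1, a splicing regulator gene of epithelial cells, had median ranks of 59.9 (D3), 72.6 (E4) and 71.7 (WT). CDH17 had 5 (D3), 2 (E4) and 3 (WT) peaks, with median ranks of 66.8, 54.0 and 47.7 over 2 shared regions. By the medians of shared regions, E4 thus lay below WT at GRHL2 and near or above it at ESRP1 and CDH17. At both ESRP1 and CDH17, 1 of 2 shared regions was lower in E4. E4 also lacked 2 of 4 WT peaks at ESRP1, 1 of 3 at CDH17 and 1 of 5 at GRHL2. At LY6E, E4 was lower in 2 of 2 shared regions.

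In the 12 windows of WNT and other signalling genes, 9 had a shared region, and the median difference from WT was below 0 in 8 of 9 for E4 and in 8 of 9 for D3. CTHRC1, a secreted WNT cofactor gene, had a median rank of 46.2 (D3), 38.6 (E4) and 57.9 (WT). FZD6, a frizzled receptor gene next to it, had 1 (D3), none (E4) and 1 (WT) peaks, and the D3 and WT peaks did not overlap. DEPTOR, an mTOR inhibitor gene, had 4 shared regions, of which 3 were lower in D3 and 4 in E4, with median ranks of 65.6 (D3), 39.6 (E4) and 59.4 (WT) and median differences from WT of −9.81 for D3 and −18.8 for E4 at DEPTOR. ASAP1, an Arf GTPase regulator gene just after the stretch, had 8 (D3), 4 (E4) and 6 (WT) peaks and medians of 37.2, 39.4 and 60.2. PTK2 had 7 (D3), 3 (E4) and 7 (WT) peaks, and its medians were 34.1, 38.8 and 68.4. The medians of both clones were below that of WT at ASAP1 and PTK2, where D3 was lower in 4 of 4 and 2 of 3 regions and E4 in as many.

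The 12 transcription and RNA genes all had a shared region, and E4 was below WT in 11 and D3 in 8. ZFAT, a zinc-finger gene after the stretch, had median ranks of 42.4 (D3), 47.2 (E4) and 78.7 (WT) over 4 regions that were lower in both clones. PUF60, a splicing factor gene, had 6.41 (D3), 13.4 (E4) and 43.9 (WT). HSF1, the gene of the main heat shock factor, had 1 region that ranked 41.3 (D3), 73.8 (E4) and 79.5 (WT). Before the stretch, RUNX1T1, a corepressor gene, had 35.1 (D3), 17.7 (E4) and 44.2 (WT). TRPS1, a GATA-type repressor gene, had 47.5 (D3), 8.03 (E4) and 28.5 (WT) in its 1 shared region. ZFPM2, a GATA cofactor gene, was higher in D3 in 5 of 5 regions and lower in E4 in 3 of 5, with medians of 59.9 (D3), 28.7 (E4) and 45.7 (WT).

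The 7 matrix and development genes had 6 windows with a shared region, where E4 was below WT in 6 and D3 in 3. MATN2, a matrilin gene, had medians of 67.8 (D3), 37.0 (E4) and 76.0 (WT), with 2 of 4 regions lower in D3 and 3 of 4 in E4. HAS2, a hyaluronan synthase gene, had 60.9 (D3), 27.3 (E4) and 34.4 (WT) in its 1 shared region. Of the 16 metabolic and other genes, 13 had a shared region, with E4 below WT in 13 and D3 in 11. CSMD3, a large gene before the stretch, had 18 (D3), 6 (E4) and 11 (WT) peaks and medians of 66.5, 24.8 and 57.4. KCNQ3, a potassium channel gene after it, had 7 shared regions with medians of 59.2 (D3), 55.6 (E4) and 80.4 (WT). ADCY8, an adenylyl cyclase gene, had 7 (D3), 3 (E4) and 7 (WT) peaks and medians of 27.4, 18.3 and 70.3. NDRG1, a hypoxia-responsive gene, had 4 (D3), none (E4) and 2 (WT) peaks. E4 was lower in 5 of 6 shared regions of CSMD3 and D3 in 1 of 6, while both clones were lower in 3 of 3 at ADCY8.

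Summed over the 62 windows, E4 lacked 71 of 217 WT peaks and D3 24, and both clones lacked 24. A peak in overlapping windows is counted in each of them. By role, E4 lacked 25 of 74 WT peaks at metabolic and other genes, 14 of 44 at transcription and RNA genes and 14 of 41 at signalling genes. It lacked 7 of 19 at genome maintenance genes, 6 of 22 at matrix genes and 5 of 17 at epithelial genes. The E4 share over all windows stood near the 30.7% of distal 8q as a whole, where D3 lacked 13.3% and both clones 13.2%. Of all WT peaks of the series, E4 lacked 14.3%, D3 4.05% and both clones 3.69%. The windows were chosen with earlier results of these data known.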

How the data were processed

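Chromatin immunoprecipitation with an antibody against CTCF was followed by paired-end sequencing, per the labels' protocols. Of 6 samples, the 3 CTCF libraries were used and the 3 libraries without antibody were not analysed here. Build hg19 and the tools MACS2 2.2.7.1, bedtools 2.29.2, Picard 2.23.1 and CASAVA 1.8.2 are listed in the submitters' processing notes. Aligner and settings are not given in the sources used here. One broad peak list per library was deposited. Fold enrichment is the ratio over the peak caller's background that the authors deposited, and −log10 p and −log10 q are the authors' values. The lowest −log10 q lay just above 1.

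Peaks overlapping by 1 bp were merged into regions with Python 3.11.15 and pandas 2.3.3. A region's −log10 q was the highest of its peaks in a list, and its width was their sum. Ranks were percentiles within the regions called in all 3 lists. Bins needed 10 regions. Shares have Clopper-Pearson 95% intervals, from SciPy 1.17.1, and medians have quartiles. No p-values were computed, since each population had 1 library. The merging and ranking were tested on simulated data.

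Gene windows came from general knowledge of hg19. All 62 symbols were on chromosome 8 of a RefSeq table of GRCh38, in the same order, and 52 windows had gene lengths within 5 kb of that table's. The other 10 differed by more. No exon or intron assignment was made. Named regions were the highest in fold, the strongest ones absent from a list, and those with the largest change of rank. Members, genes and lists were chosen with earlier results of these data known. No sequence of this chromosome is printed.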

Additional observations from a re-analysis of the deposited data

Results flagged for a closer look

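In 3 bins of 5 Mb the median difference in rank from WT was positive in D3 and negative in E4. In the bin from 95 Mb it was 1.61 points in D3 and −10.5 in E4, a gap of 12.1 points. In the bin from 100 Mb it was 0.405 in D3 and −9.40 in E4, a gap of 9.80 points. In the bin from 110 Mb it was 0.602 in D3 and −10.6 in E4, a gap of 11.2 points. These bins stood out by the sign in D3 and not by the size of the gap. The clones lay further apart in the bin from 105 Mb, with −2.03 in D3 and −16.9 in E4. They also did so in the bin from 115 Mb, with −1.29 in D3 and −16.2 in E4. With 1 library per clone the gap was not tested, and the D3 values lay within the central 95% of bins on other chromosomes.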

How the results depend on the processing

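Among 64 alternatives 50 left the value inside its interval and 14 moved it; 2 of the 64, which left out the bin from 140 Mb, were added after seeing the data. For medians, that interval was the exact binomial one. Keeping only peaks of −log10 q 5 or above, D3 overlapped 99.2% and E4 81.4% of the distal WT peaks, and 0.383% were missing from both clones. The median difference in rank became −17.5 points in E4, 0.244 in D3 before the stretch around MYC and −17.6 after it, and that in width −20.0 in E4. At equal list length D3 overlapped 75.4% and 20.4% were missing from both. With 50% coverage the overlaps were 84.0% in D3 and 61.2% in E4, with 15.7% missing from both. With the start at 90 Mb the D3 share of the list was 1.99%. In bins of 2 Mb, 74.1% of distal E4 bins lay below the limit. Fewer peaks and stricter overlap set part of these moves by construction, and the cause of the rest was not tested. No paired analysis was possible because each population had 1 library, so none could be left out. Depth was unknown, which limits statements on weak peaks.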

Other observations

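Distal 8q was also described within each list's own deciles of −log10 q. After the stretch around MYC, the strongest 2 deciles held 24.4% of the D3 peaks (20.2 to 29.1), 25.2% of the E4 peaks (19.9 to 31.1) and 33.3% of the WT peaks (28.5 to 38.5). The weakest 2 deciles held 18.8%, 17.9% and 26.9% of the same peaks. Before the stretch, the strongest 2 deciles held 19.9% (D3), 11.4% (E4) and 18.1% (WT), and in the control 16.2%, 13.9% and 13.2%. The weakest 2 deciles held 21.1% (D3), 21.9% (E4) and 27.9% (WT) before the stretch, and 20.6%, 22.4% and 23.5% in the control. Both ends of the WT list thus held more than the 20% of the whole list after the stretch. The higher share of weak WT peaks was also seen before the stretch.

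CTCF regions lay closer together in distal 8q than in the control. The median gap between neighbouring regions was 21.8 kb in distal 8q, 32.1 kb in the control and 23.3 kb on other chromosomes. The density per Mb was 20.7 (D3), 12.6 (E4) and 16.9 (WT) peaks in distal 8q. In the control it was 16 (D3), 10.5 (E4) and 11.1 (WT), from 592, 388 and 409 peaks over 37 Mb. The widest distal region in D3 was chr8:107773198-107778134, with 4937 bp in D3, 1234 bp in E4 and 1345 bp in WT, while the widest in E4, chr8:143552647-143556848, was broad in every list, with 4202, 3973 and 3771 bp in D3, E4 and WT.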
